A study of Mus musculus with 6 samples.

Results

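Ndrg2-KO dendritic cells (DCs) were set against untreated DCs over the whole transcriptome, gene by gene and list by list. Each side was 1 droplet library of mouse bone marrow-derived DCs, grown with GM-CSF from marrow of wild-type C57BL/6J mice, 6 weeks old, so 2 of the 6 libraries of the study entered the comparison. Only cells in suspension were taken from these cultures. Ndrg2-KO DCs were nucleofected with Cas9 protein and 3 guide RNAs against Ndrg2 and plated on low-attachment plastic, and untreated DCs were neither nucleofected nor edited. Levels in the library of DCs stimulated with vitamin D3 (VD3), which were not edited either, are given beside some genes. Barcodes with at least 300 genes, under 100000 unique molecular identifiers (UMIs, each marking 1 captured RNA molecule) and under 10% mitochondrial UMIs were kept, which left 7969 Ndrg2-KO and 7257 untreated cells. UMIs were summed per gene over these cells and scaled to CPM, a gene's UMIs per 1000000 UMIs of its library. Of 31053 genes in the files, 11243 had at least 200 UMIs in either library, and these genes are the ones described.

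With 1 library on each side there is no replicate error and no test was possible. Intervals in square brackets are 95% intervals of the log2 ratio of CPM, Ndrg2-KO over untreated, and cover counting error only. A gene is called higher or lower when its CPM differed at least 2-fold. Effects of nucleofection, of plating and of losing Ndrg2 cannot be told apart here, since DCs nucleofected with non-targeting guides were not analysed here as cultured cells. A sum over cells also cannot separate more cells of a type from more RNA per cell, so shares of cells and sums within cell classes are given beside the main results.

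DCs capture antigen, mature, migrate and present peptides on MHC class II to T cells. Marrow cultured with GM-CSF yields a mixture of premature and mature DCs, macrophage-like cells and residual granulocytes and progenitors. Ndrg2 belongs to the N-myc downstream-regulated gene family, alpha/beta hydrolase-fold proteins that respond to stress and differentiation.

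The kept cells held 143627482 UMIs in Ndrg2-KO DCs and 132574308 in untreated DCs, with a median of 16316 and 15804 UMIs per cell. The mitochondrial limit removed 1163 of 9132 barcodes from the Ndrg2-KO library and 604 of 7866 from the untreated library. Mitochondrial genes took 6.79% of the kept UMIs in Ndrg2-KO and 5.66% in untreated DCs, and cytosolic ribosomal protein genes 14.5% and 21.0%. Each cell was also drawn down to 2000 UMIs to count markers, which 7835 Ndrg2-KO and 6785 untreated cells allowed. At least 3 of 8 mature DC markers were found in 33.8% of Ndrg2-KO and 45.9% of untreated cells, at least 3 granulocyte and monocyte markers in 1.49% and 11.9%, and at least 3 proliferation markers in 8.93% and 16.4%. The cut at 3 mature markers falls on a range and not between types. Exactly 2 of these markers were found in 12.3% of Ndrg2-KO and 4.19% of untreated cells, so the size and makeup of the classes depend on the cut, other cuts were not run, and some of the markers were themselves lower in Ndrg2-KO DCs. The libraries differed in these shares, and its part in each difference below was not tested beyond the class sums given. The libraries shared 11 cell barcodes.

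Ndrg2 itself (ENSMUSG00000004558, chr14:51905271-51914158 on the minus strand, GRCm38) was at 0.884 CPM in Ndrg2-KO DCs, 4.62 CPM in untreated DCs (log2 ratio -2.39 [-2.67, -2.11]), and VD3 stimulated DCs held 1.42 CPM. The transcript was thus low in every library. Among cells with at least 3 mature DC markers its level was 1.54 CPM against 5.97 CPM, and among cells with fewer markers 0.647 CPM against 3.62 CPM, so the gap was present in both classes. A 3′ count does not read the edited bases, and residual UMIs do not tell how many alleles were edited. Of the other family members, Ndrg1 was at 12.9 CPM against 39.1 CPM (log2 ratio -1.60), Ndrg4 at 2.60 CPM against 6.01 CPM (-1.21) and Ndrg3 at 21.0 CPM against 13.6 CPM (0.62). Ndrg4 changed sign among cells with fewer than 3 mature markers, where its log2 ratio was 0.48.

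Over all 11243 genes the median log2 ratio was -0.06, and 84.8% of genes lay within 2-fold. A total of 929 genes were at least 2-fold higher in Ndrg2-KO DCs, 8.26% of those described, and 776 were at least 2-fold lower, 6.9%. Counts of list members given below are to be set against these shares. At least 4-fold, 284 genes were higher (2.53%) and 235 lower (2.09%), and at least 8-fold 116 were higher (1.03%) and 107 lower (0.952%). Counting intervals were narrow at this depth and excluded 0 for 87.5% of genes, so they mark depth and not the repeatability of a difference. In all, 17.9% of the UMIs of a library would have to change gene to turn the untreated profile into the Ndrg2-KO profile.

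**Figure D1:**
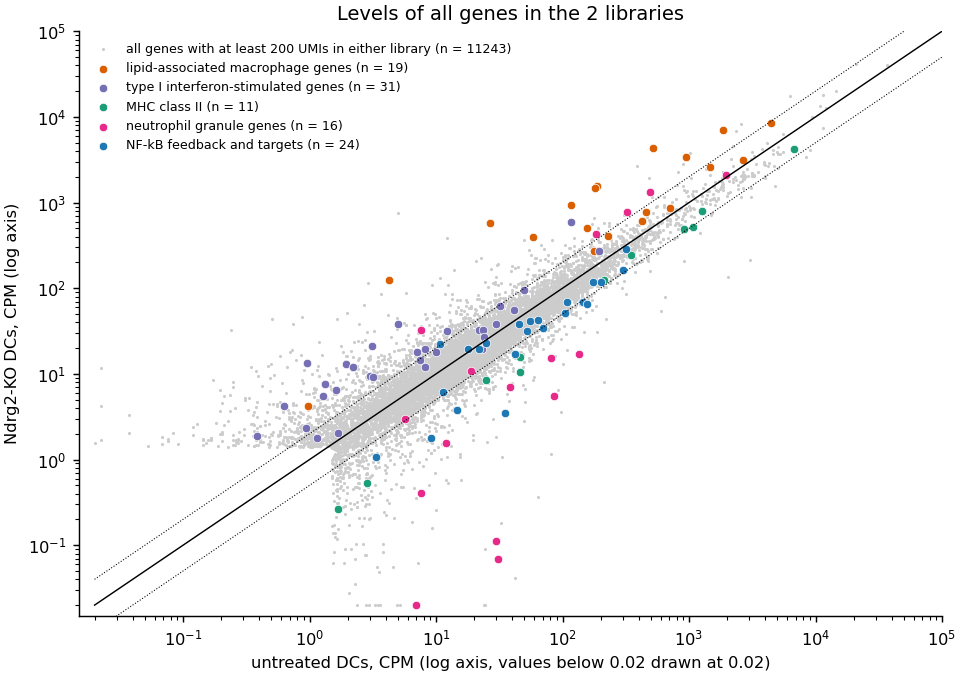
CPM of every gene with at least 200 UMIs in either library, untreated DCs on the x axis and Ndrg2-KO DCs on the y axis, both logarithmic, with the solid line at equal levels and dotted lines at 2-fold. Lipid-associated macrophage genes (orange) and interferon-stimulated genes (purple) lay mostly above the line, MHC class II (green) and most neutrophil granule genes (pink) below it.

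The largest log2 ratio was that of Col24a1, a fibrillar collagen, at 11.6 CPM in Ndrg2-KO and 0.0226 CPM in untreated DCs (log2 ratio between 7.45 and 11.28 by its interval), where the untreated value rests on 3 UMIs. Arg1 (ENSMUSG00000019987, chr10:24915221-24927484, minus strand), which splits arginine into ornithine and urea, was the highest in CPM of the 20 genes with the largest ratios, predicted gene models left out. It reached 759.7 CPM in Ndrg2-KO DCs against 5.02 CPM in untreated DCs (log2 ratio 7.24 [7.13, 7.35]), and VD3 stimulated DCs held 1.58 CPM. Its UMIs were found in 35.5% of the Ndrg2-KO cells and 0.84% of the untreated ones when each cell was drawn to 2000 UMIs.

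Several other genes of this group encode secreted or surface proteins. The eosinophil attractant Ccl24 was at 46.5 CPM against 0.867 CPM and the chemokine Cxcl14 at 113.9 CPM against 2.92 CPM. Sdc1 (chr12:8771323-8793715, plus strand), the heparan sulfate proteoglycan syndecan-1, was at 380.9 CPM against 12.2 CPM, with UMIs in 45.1% and 1.92% of cells. Kitl, the ligand of the Kit receptor, was at 16.2 CPM against 0.581 CPM, the endothelial receptor kinase gene Tie1 at 4.26 CPM against 0.0226 CPM, and the retinoic acid receptor gene Rarb at 6.96 CPM against 0.249 CPM. In VD3 stimulated DCs Sdc1 was at 30.1 CPM, Ccl24 at 1.65 CPM and Cxcl14 at 0.266 CPM, so the Ndrg2-KO level was the highest of the 3 libraries.

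The genes that gained most CPM were abundant ones. The ferritin heavy chain gene Fth1, which stores iron, was at 40938 CPM against 20902 CPM, and the lysozyme gene Lyz2 at 17572 CPM against 6333 CPM. The secreted phosphoprotein gene Spp1 (chr5:104435118-104441050, plus strand), encoding osteopontin, was at 4392 CPM in Ndrg2-KO DCs against 520.5 CPM in untreated DCs, with 585.7 CPM after VD3 stimulation. It was detected in 69.8% of Ndrg2-KO and 27.5% of untreated cells at 2000 UMIs. The chemokine genes Ccl6 and Ccl9, the lysosomal genes Psap, Ctsd and Ctss and the antioxidant enzyme gene Prdx1 were also among the 15 largest gains when ribosomal protein and mitochondrial genes are left out.

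**Figure D2:**
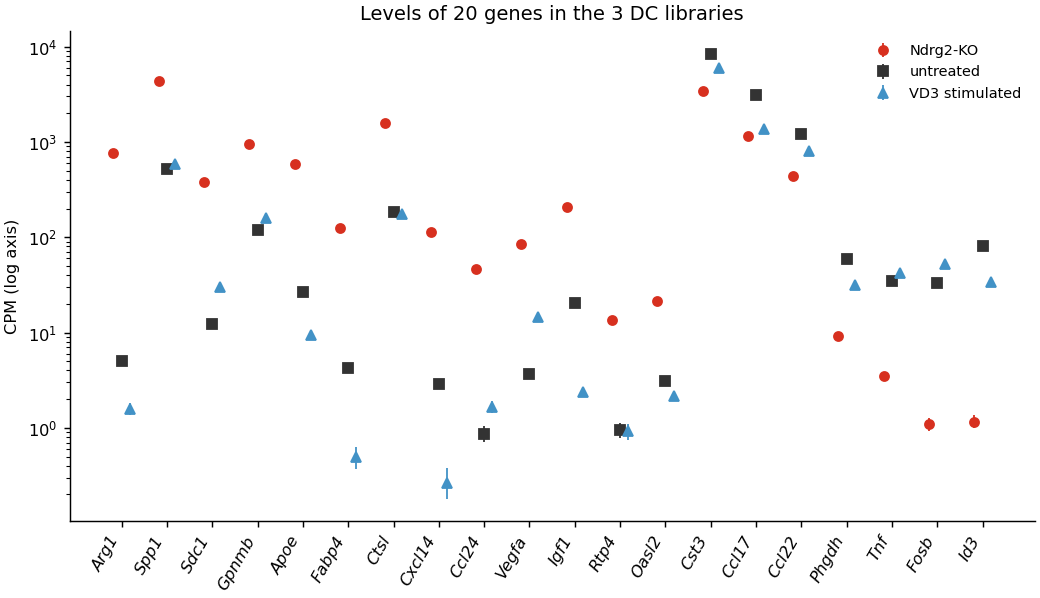
CPM of 20 genes in Ndrg2-KO (red circles), untreated (black squares) and VD3 stimulated DCs (blue triangles) on a logarithmic axis, 1 library each, with exact 95% Poisson intervals that cover counting error only. Arg1, Sdc1, Apoe and Fabp4 were highest in Ndrg2-KO DCs by more than 10-fold, while Phgdh, Tnf, Fosb and Id3 were lowest there.

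Genes of lipid-laden macrophages, which take up and store cholesterol and fatty acids and degrade them in lysosomes, were higher as a list. Of 19 members, 11 were at least 2-fold higher and none lower, and all 19 log2 ratios were above 0, with a median of 1.86 against -0.06 over all genes. Fabp4, a fatty acid carrier, was at 126.3 CPM against 4.22 CPM (log2 ratio 4.91 [4.78, 5.03]). Apoe, the apolipoprotein that carries cholesterol out of cells, was at 583.0 CPM against 26.9 CPM (4.44 [4.39, 4.49]). These were the leading members.

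The fatty acid receptor gene Cd36 was at 1470 CPM against 181.5 CPM, the glycoprotein gene Gpnmb at 947.9 CPM against 117.7 CPM and the lipid receptor gene Trem2 at 498.8 CPM against 156.8 CPM. Trem2 was at 543.2 CPM against 227.3 CPM among cells with under 3 mature DC markers and at 378.1 CPM against 64.8 CPM among cells with at least 3, so it was higher in both classes. Fabp5 was the exception by cell class. Over all cells Fabp5 was at 3156 CPM against 2685 CPM, but it was higher among cells with fewer than 3 mature markers (2855 CPM against 585.2 CPM) and within 2-fold among cells with at least 3 (3983 CPM against 5474 CPM). Since more Ndrg2-KO cells lay just under the cut and Fabp5 was found in 98.1% of untreated cells above it, the part of the cut in the first value was not tested.

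Cholesterol efflux genes driven by LXR, the nuclear receptor that senses oxysterols, had 3 of 11 members higher (27.3%, against 8.26% of all genes) and none lower. Beside Apoe, the membrane exporter gene Abca1 was at 161.7 CPM against 13.9 CPM (log2 ratio 3.54) and the ubiquitin ligase gene Mylip at 22.1 CPM against 8.96 CPM. Abcg1, another exporter, was at 134.0 CPM against 101.2 CPM, and Nr1h3, which encodes LXR alpha, at 3.23 CPM against 3.65 CPM. Sterol synthesis genes were mostly within 2-fold, with 3 of 24 higher (Sc5d, Dhcr7 and Insig1, 12.5% against 8.26% of all genes), none lower and a median of 0.24. In fatty acid synthesis 2 of 13 members were higher (15.4%) and 1 lower (7.69%, against 6.9% of all genes). The desaturase genes Scd1 (44.8 CPM against 9.99 CPM) and Scd2 (215.5 CPM against 65.8 CPM) were higher, the malic enzyme gene Me1 was lower at 2.26 CPM against 5.75 CPM, and Fasn was within 2-fold at 22.4 CPM against 36.5 CPM.

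Lysosomal proteases and membrane proteins were higher more often than all genes were. Among 13 cathepsins, the lysosomal proteases, 7 were higher and 1 lower, with a median log2 ratio of 1.54. Ctse was at 43.5 CPM against 0.505 CPM (log2 ratio 6.43 [6.08, 6.80]), Ctsl at 1579 CPM against 185.7 CPM, Ctsk at 16.1 CPM against 1.97 CPM and Ctsb at 1922 CPM against 478.7 CPM. The member that was lower was Ctsg, a protease of neutrophil granules and not of lysosomes, at 0.0696 CPM against 30.7 CPM.

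Of 22 lysosomal membrane and hydrolase genes, 8 were higher (36.4%, against 8.26% of all genes) and 1 lower (4.55%, against 6.9%), with a median of 0.79. With totals that leave out mitochondrial and ribosomal protein genes 5 of 22 were higher. The asparaginyl endopeptidase gene Lgmn was at 361.4 CPM against 83.0 CPM, the membrane protein gene Lamp2 at 667.5 CPM against 176.9 CPM and the galactosidase gene Gla at 51.9 CPM against 14.4 CPM. The lower member was Laptm4b, at 2.40 CPM against 6.78 CPM. V-ATPase subunits, which acidify the lysosome, had 17 of 19 log2 ratios above 0 but 2 past 2-fold, a share of 10.5% that is near the 8.26% of all genes, Atp6v0d2 (396.2 CPM against 58.9 CPM) and Tcirg1 (205.9 CPM against 77.2 CPM). In the autophagy list, 4 of 21 were higher (19.0%, against 8.26% of all genes), among them Wipi1 and the mitophagy receptor gene Bnip3l, and none lower, but 2 of 21 with totals that leave out mitochondrial and ribosomal protein genes and with at least 3 mature markers.

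**Figure D3:**
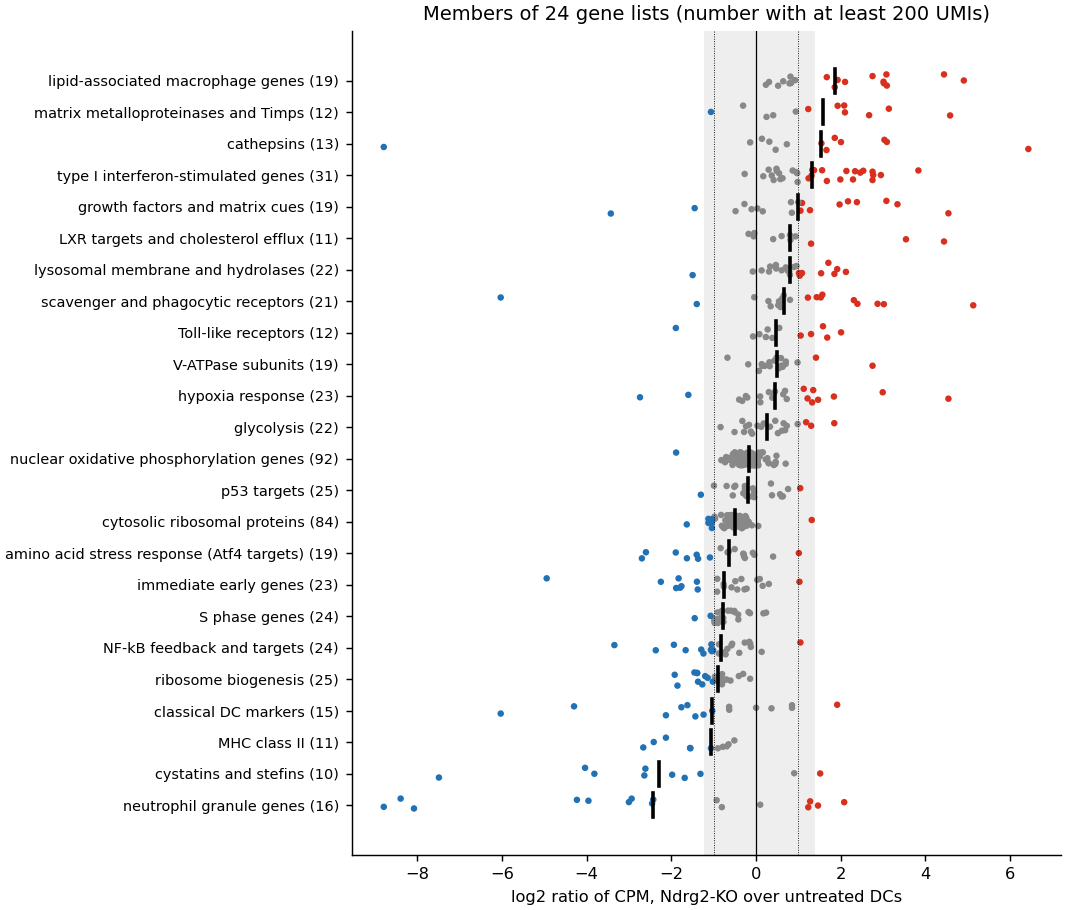
Log2 ratio of CPM, Ndrg2-KO over untreated DCs, of each member of 24 lists (number described in parentheses), red at least 2-fold higher, blue at least 2-fold lower, grey between, with a black bar at the list median and vertical scatter without meaning. The grey band spans the 5th to 95th percentile of single genes, -1.20 to 1.38, and is no yardstick for a list median. The uppermost lists had medians of 1.86, 1.58 and 1.54 and the median of all genes was -0.06.

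Of 12 matrix metalloproteinase and Timp genes, 7 were higher and 1 lower, with a median log2 ratio of 1.58. The collagenase gene Mmp13 was at 64.1 CPM against 2.68 CPM (log2 ratio 4.58), Mmp19 at 109.7 CPM against 12.5 CPM, the inhibitor genes Timp1 at 85.5 CPM against 13.4 CPM and Timp2 at 73.6 CPM against 17.2 CPM. Mmp14, a membrane-bound collagenase, was at 56.5 CPM against 47.6 CPM, and Mmp23 was lower, with a log2 ratio of -1.06 that changed sign to 0.45 among cells with under 3 mature markers.

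Growth factors that act on vessels and stroma had 9 of 19 members higher and 2 lower. Vegfa, the main vascular growth factor, was at 84.8 CPM in Ndrg2-KO, 3.64 CPM in untreated DCs and 14.4 CPM after VD3 stimulation (log2 ratio 4.54 [4.41, 4.68]), and was found in 16.0% of Ndrg2-KO and 0.914% of untreated cells at 2000 UMIs. Igf1 was at 207.7 CPM against 20.5 CPM, Pdgfc at 6.69 CPM against 1.49 CPM and Hgf at 6.30 CPM against 1.61 CPM. The related factor Pgf, which binds a receptor of Vegfa, differed the other way, at 1.02 CPM against 11.0 CPM (-3.43 [-3.68, -3.18]), as did Angptl4 at 1.73 CPM against 4.71 CPM. Tgfb1 was at 230.6 CPM against 225.7 CPM. Among matrix glycoproteins, 5 of 13 were higher, including Thbs1 (382.0 CPM against 123.4 CPM) and the proteoglycan gene Vcan (58.8 CPM against 29.2 CPM), and Emilin2 was lower.

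Arginine is used either by arginase, toward ornithine, or by inducible nitric oxide synthase. Both enzyme genes were higher, Arg1 by the ratio given above and Nos2 at 1.73 CPM against 0.0754 CPM (log2 ratio 4.52 [3.61, 5.59]), the latter on 10 UMIs in untreated DCs. The arginine transporter gene Slc7a2 was also higher, at 118.6 CPM against 49.9 CPM. Of 13 arginine and polyamine genes, 3 were higher (23.1%, against 8.26% of all genes) and 2 lower (15.4%, against 6.9%), of which 1 stayed lower with median-ratio scaling and none of 11 with at least 3 mature markers. The lower ones were the polyamine enzyme genes Odc1, at 61.0 CPM against 125.9 CPM, and Srm, at 21.2 CPM against 63.0 CPM, while the polyamine enzyme gene Amd1 lay within 2-fold at 10.6 CPM against 17.2 CPM.

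Interferon-stimulated genes, which restrict viruses and are switched on by interferon signalling, were higher as a list, at low levels. Of 31 members described, 17 were at least 2-fold higher, none was lower, and 30 had a log2 ratio above 0. The median was 1.31. Rtp4 was at 13.5 CPM against 0.950 CPM (log2 ratio 3.83 [3.57, 4.10]), Ifi204 at 38.6 CPM against 5.01 CPM, Oasl2 at 21.3 CPM against 3.13 CPM and Rsad2 at 13.1 CPM against 1.95 CPM. The factor gene Irf7, which amplifies the response, was at 5.59 CPM against 1.27 CPM, while the factor gene Stat2 was at 26.9 CPM against 23.9 CPM. In VD3 stimulated DCs, Rtp4 was at 0.919 CPM, Ifi204 at 2.93 CPM and Rsad2 at 6.27 CPM.

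UMIs of these genes were found in few cells. At 2000 UMIs per cell, Rtp4 was found in 2.32% of Ndrg2-KO and 0.177% of untreated cells and Rsad2 in 2.12% and 0.31%. At full depth Rtp4 reached 15.8% and 1.14% of cells. The exception of the list was Herc6, at 19.3 CPM against 23.2 CPM. Cxcl10, a chemokine that interferons induce and that was counted with the CXC chemokines, was at 1.09 CPM against 1.70 CPM.

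Sensors of nucleic acid in the cytosol had 3 of 14 members higher (21.4%, against 8.26% of all genes), Ifi204, Dhx58 and Ddx58, and none lower. The DNA sensor Mb21d1 was at 13.2 CPM against 19.0 CPM and its adaptor Tmem173 at 44.4 CPM against 55.0 CPM. Among Toll-like receptors and cofactors, 5 of 12 were higher. These included 3 endosomal receptors of nucleic acid, Tlr7 (14.3 CPM against 4.78 CPM), Tlr8 (3.68 CPM against 1.15 CPM) and Tlr13 (29.3 CPM against 11.9 CPM). Tlr2, a surface receptor of bacterial lipoproteins, was lower, at 28.9 CPM against 107.3 CPM, and Tlr4 was at 30.4 CPM against 31.9 CPM.

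Promoters of interferon-stimulated genes are shown because 17 members of the list were higher. The interferon-stimulated response element was searched as TTTC, any 2 bases and again TTTC on both strands in the 250 bases before the annotated start, with RefSeq promoters of GRCm38.p6, taking the start listed first for each gene. It was found in 10 of the 22 list members with a promoter in the table, 45.5%, in 3.04% of all 27025 promoters and in 2.84% of those of described genes. Rsad2 held 1 match, starting 120 bases before the start, Ifit3 held 2 and Isg15 held 3 that overlap. The match is printed in capitals. A match describes these letters and is not evidence of binding.
Rsad2, chr12:26456453-26456702, minus strand: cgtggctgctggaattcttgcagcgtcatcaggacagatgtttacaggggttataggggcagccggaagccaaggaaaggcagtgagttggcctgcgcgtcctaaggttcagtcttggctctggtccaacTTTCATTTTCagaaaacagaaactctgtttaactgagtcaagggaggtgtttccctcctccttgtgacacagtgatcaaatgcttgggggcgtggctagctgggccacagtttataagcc
Ifit3, chr19:34583279-34583528, plus strand: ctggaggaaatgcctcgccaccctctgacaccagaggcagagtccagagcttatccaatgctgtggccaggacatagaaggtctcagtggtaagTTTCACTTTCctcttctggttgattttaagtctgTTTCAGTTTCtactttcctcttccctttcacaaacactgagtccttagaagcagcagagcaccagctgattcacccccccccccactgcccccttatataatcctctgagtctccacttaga
Isg15, chr4:156200819-156201068, minus strand: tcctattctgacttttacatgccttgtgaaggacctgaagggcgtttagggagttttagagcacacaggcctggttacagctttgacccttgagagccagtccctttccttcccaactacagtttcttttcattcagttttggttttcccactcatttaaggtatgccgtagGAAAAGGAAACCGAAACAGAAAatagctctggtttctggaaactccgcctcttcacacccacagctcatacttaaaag

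Ifit3 was at 1.88 CPM against 0.385 CPM and Isg15 at 17.8 CPM against 7.08 CPM, so all 3 genes whose promoters are printed were higher, by log2 ratios of 2.75 for Rsad2, 2.29 for Ifit3 and 1.33 for Isg15. Members whose promoter held no match in this window were higher too, among them Oasl2 and Irf7, and members with a match included Stat2, at a log2 ratio of 0.17. Rtp4 and Ifi204 had no promoter in the table.

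The hypoxia response, genes switched on by the factor Hif1a when oxygen is low, had 8 of 23 members higher (34.8%, against 8.26% of all genes) and 2 lower (8.70%, against 6.9%), with a median of 0.45. With the mean over cells 5 of 23 were higher. With under 3 mature markers 7 of 22 were higher and none lower, and with at least 3 it was 7 and 2 of 21. Hif1a itself was at 293.8 CPM against 114.0 CPM (log2 ratio 1.37). Beside Vegfa, the kinase gene Ak4 was at 9.41 CPM against 1.18 CPM, Ankrd37 at 15.6 CPM against 4.36 CPM and the mitophagy gene Bnip3 at 36.8 CPM against 14.4 CPM. Members that are induced by hypoxia in other cells went the other way, Ndrg1 as given above and Adm at 0.258 CPM against 1.72 CPM, although Adm changed sign to 0.63 among cells with under 3 mature markers, while the kinase gene Pdk1 lay within 2-fold. In glycolysis 3 of 22 were higher (13.6%, against 8.26% of all genes, and 1 of 22 with the mean over cells), the hexokinase gene Hk3 (62.0 CPM against 17.2 CPM), Pfkfb4 and Pfkl, and none lower, with the lactate dehydrogenase gene Ldha at 562.6 CPM against 517.1 CPM.

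A hypoxia response element, searched as ACGTGC on both strands in the same window, was found in 7 of 20 list members with a promoter (35%), in 4.91% of all promoters and in 6.84% of those of described genes. The promoters of Ankrd37, with 1 match starting 241 bases before the start, and of Bnip3, with overlapping matches on both strands, are shown with the match in capitals, since both genes were higher.
Ankrd37, chr8:45999851-46000100, minus strand: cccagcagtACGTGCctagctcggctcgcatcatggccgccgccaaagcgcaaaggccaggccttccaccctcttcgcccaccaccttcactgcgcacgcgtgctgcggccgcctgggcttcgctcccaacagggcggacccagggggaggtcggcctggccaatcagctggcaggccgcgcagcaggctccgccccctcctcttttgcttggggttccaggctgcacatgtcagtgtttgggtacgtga
Bnip3, chr7:138909507-138909756, minus strand: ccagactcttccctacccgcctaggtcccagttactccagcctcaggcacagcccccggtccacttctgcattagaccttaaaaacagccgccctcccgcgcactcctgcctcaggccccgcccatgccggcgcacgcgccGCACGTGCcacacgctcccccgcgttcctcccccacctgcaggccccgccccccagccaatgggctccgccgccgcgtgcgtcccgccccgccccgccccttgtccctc

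Further searches went with other lists. The NF-kB letters GGG, any 2 bases and TTTCC were in 5 of 20 promoters of its list, 1.4% of all and 1.46% of those of described genes. The E-box TCACGTG was in 3 of 15 lysosomal promoters, 3.15% of all and 5.16% of those of described genes, and the E2F letters TTTCCCGC in 2 of 19 S phase promoters, 0.929% and 1.93%. The E-box CACGTG, whose letters lie within TCACGTG, was in 1 of 21 ribosome biogenesis promoters, 6.05% of all and 8.73% of those of described genes.

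Iron handling had 5 of 13 members higher (38.5%, against 8.26% of all genes) and 2 lower (15.4%, against 6.9%), with a median of 0.68. Among cells with at least 3 mature markers 3 of 10 were higher and none lower, with a median of 0.15. The exporter gene Slc40a1 was at 10.6 CPM against 2.67 CPM and the heme oxygenase gene Hmox1 at 270.9 CPM against 123.9 CPM, while the transferrin receptor gene Tfrc was at 15.9 CPM against 43.3 CPM. The other lower member, Lcn2, is also a neutrophil granule gene and was at 17.0 CPM against 135.9 CPM. Among Nrf2 targets, which protect from oxidation, 4 of 28 were higher (14.3%, against 8.26% of all genes) and 1 lower (3.57%, against 6.9%), with a median of 0.01. With the mean over cells 1 was higher and 2 lower, and with totals that leave out mitochondrial and ribosomal protein genes 2 and 2. With under 3 mature markers 2 were higher and 4 lower, and with at least 3 it was 4 and 1 of 27. Gpx3 was at 37.4 CPM against 5.82 CPM and the lower member, Nqo1, at 6.87 CPM against 24.4 CPM.

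Of 21 scavenger and phagocytic receptors, 9 were higher and 2 lower, with Tgm2 at 85.3 CPM against 11.7 CPM and the apoptotic cell receptor gene Mertk at 44.8 CPM against 8.53 CPM. The lower members were Marco and Cd209a, the latter at 0.0348 CPM against 2.27 CPM. Of the Fc receptors for IgG, Fcgr4 (8.39 CPM against 0.867 CPM), Fcgr3 and Fcgr1 were higher, and the inhibitory receptor gene Fcgr2b was within 2-fold at 84.2 CPM against 115.4 CPM. Killer lectin-like receptors were detected in these myeloid cells as well, and went both ways. Of 8 members, 3 were higher (37.5%, against 8.26% of all genes) and 2 lower (25%, against 6.9%), down to a log2 ratio of -3.99. Klra17 was at 8.49 CPM against 0.173 CPM and Klrd1 at 12.5 CPM against 2.36 CPM. Reads of near-identical members of such families may have been dropped or split in counting.

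Of 15 macrophage markers, 7 were higher (46.7%, against 8.26% of all genes) and 1 lower, 12 had a log2 ratio above 0 and the median was 0.62, with Cd14 at 178.0 CPM against 44.3 CPM. Adgre1, encoding F4/80, was at 26.8 CPM against 37.6 CPM and C1qa at 90.5 CPM against 128.7 CPM, both within 2-fold, and C1qa changed sign to 0.12 among cells with at least 3 mature markers and to 0.68 under 5% mitochondrial UMIs. Among 42 DC and macrophage transcription factors, 35 lay within 2-fold, 4 were higher (9.52%) and 3 lower (7.14%), near the 8.26% and 6.9% of all genes. Among the higher ones were Maf (6.49 CPM against 1.51 CPM), Bhlhe41 and Hif1a.

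The inhibitors of differentiation Id1, on that list, and Id3, not on it, block E proteins and were lower. Id1 was at 3.58 CPM against 96.6 CPM (log2 ratio -4.75 [-4.88, -4.63]) and at 41.7 CPM in VD3 stimulated DCs. Id3 was at 1.16 CPM against 81.5 CPM (-6.13 [-6.36, -5.91]) and at 33.6 CPM in VD3 stimulated DCs. Id3 was found in 19.2% of untreated and 0.453% of Ndrg2-KO cells with at least 3 mature markers, and in 7.77% and 0.174% of the others, so both classes showed the gap. Zbtb46, a factor of classical DCs, was at 7.96 CPM against 18.8 CPM and Stat5a, which signals from GM-CSF, at 19.2 CPM against 39.5 CPM. Of 15 Stat and Socs genes, 10 lay within 2-fold and the remaining 5 were lower (33.3%, against 6.9% of all genes, median -0.03). Among the lower ones were the feedback inhibitor genes Cish at 61.2 CPM against 182.8 CPM, Socs1 at 26.9 CPM against 76.3 CPM and Socs3 at 11.0 CPM against 28.8 CPM. Socs3 changed sign among cells with at least 3 mature markers, with a log2 ratio of 0.35.

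Transcripts of MHC class II genes were lower. All 11 members had a log2 ratio below 0, 6 of them past 2-fold (54.5%, against 6.9% of all genes), with a median of -1.06. The invariant chain gene Cd74 was at 4180 CPM against 6743 CPM, H2-Eb1 at 513.8 CPM against 1074 CPM and the transactivator gene Ciita, which drives the class, at 15.8 CPM against 46.2 CPM. The median was -1.18 among cells with under 3 mature markers, where 6 of 10 were past 2-fold, and -0.64 among cells with at least 3, where 2 of 10 were. In contrast, class I genes were mostly within 2-fold, 2 of 19 being higher (H2-T23 and H2-T22) and 2 lower (H2-Q6 and H2-Q7), 10.5% each way and near the shares of all genes, with B2m at 2481 CPM against 1355 CPM. Among cells with under 3 mature markers 6 of 19 were higher and none lower, and H2-Q7 changed sign to 0.19.

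Classical DC markers had 8 of 15 members lower and 1 higher. Itgae, the integrin chain CD103, was at 0.355 CPM against 6.98 CPM and the lectin gene Mgl2 at 159.9 CPM against 491.7 CPM, whereas Clec9a, a receptor for dead cells, was at 10.5 CPM against 2.78 CPM. Fscn1, the actin bundler of mature DC dendrites, was at 43.4 CPM against 219.1 CPM. The chemokines Ccl17 (1166 CPM against 3078 CPM) and Ccl22 (444.3 CPM against 1225 CPM), which attract T cells, were among the 15 genes that lost most CPM by the same count, as was Cst3, a cystatin abundant in DCs, at 3404 CPM against 8450 CPM. By class Ccl17 was at 896.5 CPM against 3655 CPM with under 3 mature markers and at 1904 CPM against 2350 CPM, within 2-fold, with at least 3. Ccl22, itself a marker that sets the classes, was within 2-fold in both, at 45.0 CPM against 59.7 CPM and at 1536 CPM against 2772 CPM. Among costimulatory and checkpoint ligands, Cd40 was at 3.82 CPM against 14.6 CPM, and the inhibitory receptor genes Havcr2 (10.1 CPM against 2.62 CPM) and Vsir (69.2 CPM against 30.7 CPM) were higher.

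**Figure D4:**
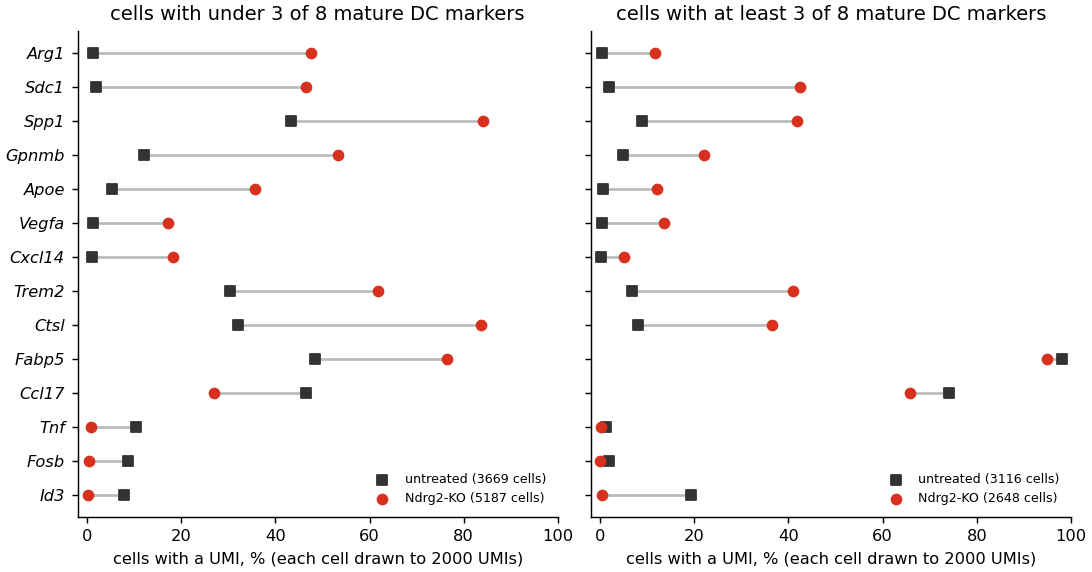
Share of cells with a UMI of each gene, each cell drawn to 2000 UMIs, among cells with under 3 (left) and at least 3 (right) of 8 mature DC markers, black squares for untreated and red circles for Ndrg2-KO DCs joined by a grey line. Arg1, Sdc1 and Spp1 were found in more Ndrg2-KO cells in both classes.

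Class by class, Arg1 was found in 47.6% of Ndrg2-KO cells with under 3 mature markers and 11.7% of those with at least 3, against 1.23% and 0.385% of untreated cells. Sdc1 hardly depended on class in Ndrg2-KO DCs, with 46.5% and 42.4%, against 1.88% and 1.96% in untreated DCs. Spp1 went from 43.3% to 84.1% of the cells with fewer markers and from 8.86% to 41.8% of the others. Median depth before drawing down was 18862 and 12403 UMIs in the Ndrg2-KO classes and 18465 and 15144 in the untreated ones. Free RNA in the droplets can place UMIs in cells that do not make a gene, no class here is known to lack these genes, and its part was not tested.

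Of 23 immediate early genes, which respond to signals within minutes, 8 were lower and 1 higher, with a median of -0.76. Fosb was at 1.09 CPM against 33.4 CPM (log2 ratio -4.94 [-5.18, -4.71]), Fos at 15.3 CPM against 54.3 CPM and the phosphatase gene Dusp1 at 21.0 CPM against 54.5 CPM, while Atf3 was at 140.5 CPM against 69.1 CPM.

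NF-kB targets and feedback genes had 10 of 24 members lower and 1 higher, with a median of -0.82. The cytokine gene Tnf was at 3.46 CPM in Ndrg2-KO, 35.1 CPM in untreated DCs and 42.3 CPM after VD3 stimulation (log2 ratio -3.34 [-3.48, -3.21]), and Nfkbiz at 1.78 CPM against 9.16 CPM. The higher member was Il1a, at 22.4 CPM against 10.8 CPM, and Il1b was at 19.5 CPM against 21.8 CPM. The neutrophil attractants Cxcl1 and Cxcl2 were lower, Cxcl2 at 16.3 CPM against 86.7 CPM. None of the 12 inflammasome genes listed passed 2-fold in either direction, but the sensor gene Naip1, which was not on the list, was among the largest ratios, at 6.47 CPM against 0.196 CPM. Among cells with at least 3 mature markers the NF-kB median was -0.25.

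Genes of ribosome biogenesis and of cytosolic ribosomal proteins had log2 ratios below 0 in most members. All 25 ribosome biogenesis genes had a log2 ratio below 0 and 10 passed 2-fold (40%, against 6.9% of all genes), with a median of -0.90. By class, 22 of 25 were lower with under 3 mature markers and 1 of 23 with at least 3. The snoRNA partner genes Dkc1 (10.7 CPM against 40.6 CPM) and Nop58 (19.3 CPM against 69.8 CPM) were lowest. Of 84 cytosolic ribosomal protein genes, 82 had a log2 ratio below 0, 6 were lower past 2-fold (7.14%, near the share of all genes) and the median was -0.51, with Rplp1 at 1551 CPM against 4817 CPM.

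The 7 chaperonin subunits of the CCT ring lay between -0.22 and -0.85, and none of 48 proteasome genes passed 2-fold, with a median of -0.36. Targets of Atf4, which respond to amino acid shortage, had 7 of 19 members lower (36.8%, against 6.9% of all genes) and 1 higher, Gpt2, with a median of -0.64. The lower ones were led by the serine synthesis gene Phgdh (9.11 CPM against 59.0 CPM) and the asparagine synthesis gene Asns (3.43 CPM against 20.8 CPM). With under 3 mature markers 8 of 19 were lower, and with at least 3 it was 3 of 18, with a median of -0.12. Unfolded protein genes of the endoplasmic reticulum were centred on 0, with a median of 0.01 over 23 genes.

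Genes of respiration differed little. Of 92 nuclear genes of oxidative phosphorylation none was higher and 1 lower, Ndufa4 (85.2 CPM against 314.8 CPM), and the 13 mitochondrially encoded genes had a median of 0.09, with mt-Co1 at 17831 CPM against 11492 CPM. In the citric acid cycle Idh1 was the only member past 2-fold, at 321.2 CPM against 104.8 CPM.

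Cell cycle genes had log2 ratios mostly below 0, and how many passed 2-fold depended on the cells and the scaling. All 33 G2/M genes had a log2 ratio below 0, with 6 past 2-fold (18.2%, against 6.9% of all genes), among them Mki67 at 47.9 CPM against 108.8 CPM, and the median was -0.79. Of 24 S phase genes, 22 were below 0 and 2 past 2-fold (8.33%). Among cells with under 3 mature markers 22 of 33 and 14 of 24 were lower, with totals that leave out mitochondrial and ribosomal protein genes 12 and 7, and under 5% mitochondrial UMIs 1 and 1. Pcna was at 70.8 CPM against 62.7 CPM. Targets of p53 had 1 of 25 members higher and 1 lower, Sesn1 and Perp (4% each, below the shares of all genes). With under 3 mature markers 4 of 24 were higher and 2 lower. Cdkn1a lay within 2-fold at 292.6 CPM against 582.9 CPM. Of the genes at predicted off-target sites of the guides, Amy1 and Sema5a had at most 5 UMIs in either library and Ftsj1 alone had enough to be described, at 4.70 CPM against 5.54 CPM.

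Genes of granulocytes, basophils and progenitors held many of the largest negative ratios. Of 16 neutrophil granule genes 9 were lower and 4 higher. Mpo, the myeloperoxidase of azurophilic granules, had 0 UMIs in Ndrg2-KO DCs against 928 in untreated DCs, and Elane was at 0.111 CPM against 30.0 CPM. The 4 higher members were Mmp9, Cybb, Anxa1 and Mmp8, which macrophages or DCs also make, with Cybb at 1342 CPM against 487.1 CPM. Of 7 basophil markers, 6 were lower, 5 of them with no UMI in Ndrg2-KO DCs, and 1 was higher, Cd200r3, at a log2 ratio of 1.01. The share of cells holding granulocyte and monocyte markers, given above, was lower too. Without cells holding 3 or more markers of granulocytes and monocytes, of basophils or of proliferation, 11 of the 16 granule genes still had enough UMIs, of which 4 were higher and 5 lower, with Ctsg at a log2 ratio of -7.20 and Elane at -5.04. That selection removes cells by markers of the same kind, so it changes this list by construction.

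Other lower genes of this kind were the protease inhibitor gene Ctla2a, at 0.0418 CPM against 42.0 CPM, and the 5 Ly6 genes, all past 2-fold. A total of 10 genes had no UMI in Ndrg2-KO DCs and at least 200 in untreated DCs, and no gene showed the reverse. Stefins and cystatins, inhibitors of cathepsins, had 8 of 10 members lower, with Stfa1 at 0.181 CPM against 32.4 CPM, and only Cst6 passed 2-fold upward while Cstb was at 1937 CPM against 1038 CPM.

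List medians were also taken within each class of cells. Among cells with under 3 and at least 3 mature DC markers, the median of lipid-associated macrophage genes was 1.65 and 1.66, that of metalloproteinases and Timps 1.78 and 1.69, that of growth factors 0.85 and 1.03 and that of lysosomal genes 0.74 and 0.82. Cathepsins (1.64 and 0.66) and interferon-stimulated genes (1.46 and 0.85) differed more in the class with fewer markers. Of 54 lists with a median below 0, 41 were nearer to 0 in the class with more markers, ribosome biogenesis at -1.25 and -0.23 and S phase genes at -1.08 and -0.33, while classical DC markers went the other way, at -0.39 and -0.61. The median of all genes was itself -0.13 with under 3 and 0.10 with at least 3 mature markers. That shift was not taken out of the list medians, so the count of 41 includes it.

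**Figure D5:**
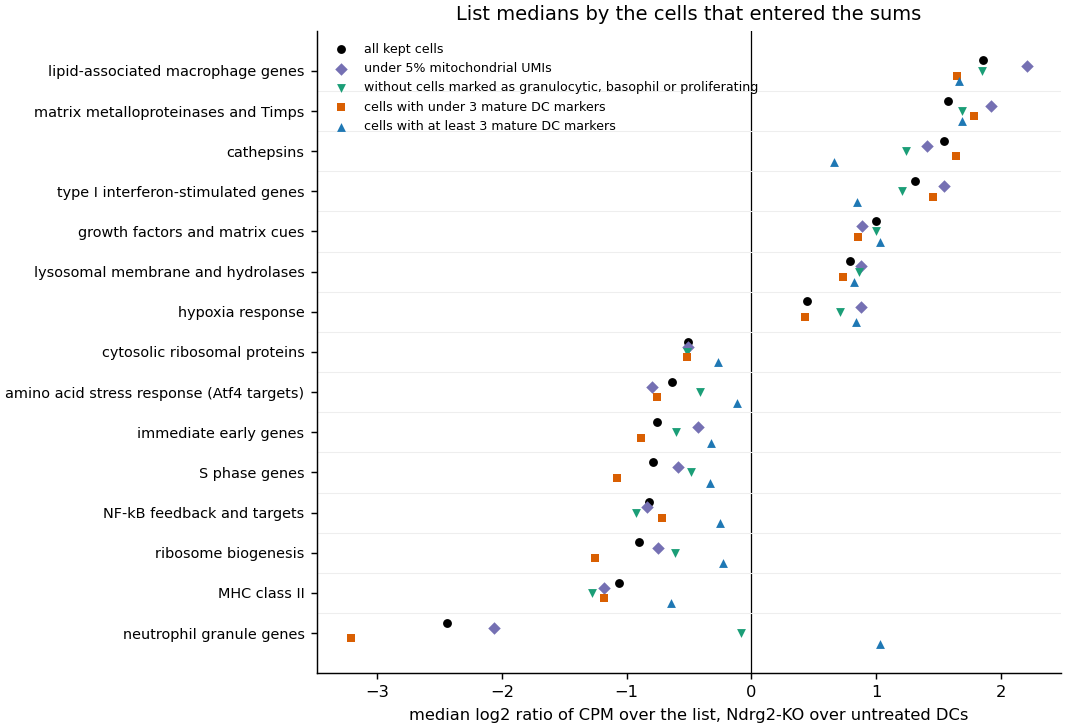
Median log2 ratio of 15 lists, Ndrg2-KO over untreated DCs, for all kept cells (black circles) and for 4 other selections of cells in colour. The 7 lists above 0 stayed above 0 in each selection, while the neutrophil granule list ran from -3.21 over 16 members to 1.03 over the 11 that then had enough UMIs.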

How the data were processed

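The authors deposited filtered UMI count matrices made with Cell Ranger 3.1.0, per the file headers, 1 per library. The submitters' notes also name Seurat 3.1.1 and the build mm9, whereas the methods name mm10. Gene positions are from GENCODE M21 (GRCm38). From the counts, cells were kept by the limits given above, UMIs were summed per gene and scaled to CPM of all UMIs. Intervals are exact Poisson for CPM and exact conditional binomial for ratios, at 95%. No doublet caller was run, and an alternative leaves out the 6% of cells with most UMIs. Genes named are Ndrg2, the 20 largest ratios in each direction and the 15 largest gains and losses of CPM, without mitochondrial and ribosomal protein genes and, for ratios, predicted gene models, up to 4 members at each end of every list, and genes that the study names, and members named beyond this rule were chosen after their values were seen. Gene lists (55) and families by symbol (55 patterns) were chosen with earlier results of these data known, and patterns that caught unrelated genes were narrowed after values were seen. Some genes, such as Apoe and Ctsg, are on several lists, so these lists are not independent of each other. Paralogs and overlapping genes can split or lose reads. The scripts were tested on simulated counts. Of the other libraries, that of VD3 stimulated DCs gives levels beside some genes. Python 3.11.15, numpy 2.4.6, scipy 1.17.1, pandas 2.3.3 and matplotlib 3.10.9 were used. Results for some genes are not reported here.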

Additional observations from a re-analysis of the deposited data

How the results depend on the processing

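No paired analysis was possible because each group has 1 library. Against 929 higher and 776 lower genes, a minimum of 1000 UMIs gave 589 and 454, a limit of 1.5-fold 1786 and 1887 and of 4-fold 284 and 235. Among cells with at least 3 mature DC markers 634 of 9456 genes were higher and 330 lower, with a median of all genes of 0.10, and with under 3 markers 946 of 10628 were higher and 1027 lower. With totals that leave out mitochondrial and ribosomal protein genes the median was -0.16, a shift of -0.10, with 802 higher and 971 lower. Of the 1705 called genes, between 1679 and 1705 kept their direction under the 10 other scalings and cell selections, and between 1145 and 1705 stayed past 2-fold. Of 110 list medians, 37 took both signs over these settings, and 34 of those were under 1 in size to begin with. The others were neutrophil granule genes (1.03 with at least 3 mature markers, over 11 of 16 members), basophil markers (1.93 without marker cells of other types) and collagens (-1.95 under 5% mitochondrial UMIs and -0.68 with at least 3 mature markers). The basophil value is that of Cd200r3 alone and the collagen values those of Col27a1 alone, the 1 member left with enough UMIs, and neither gene changed sign. Among the 404 called genes that the naming rule or the text takes up, those that changed sign with under 3 mature markers were H2-Q7 (0.19), Ndrg4 (0.48), Cd83 (0.57), Gbp5 (0.47), Adm (0.63) and Mmp23 (0.45). With at least 3 they were Abcb6 (0.037), Socs3 (0.35) and Ngp (1.03). Fcrls (0.026) did so under 5% mitochondrial UMIs and Stfa3 (0.25) without marker cells of other types. The cause was not tested. Replicates left out could not be tried, and low UMI counts limit genes near the minimum.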
